A study of Homo sapiens with 12 samples.

Results

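The transcripts of 33 genes of homologous recombination and the Fanconi anaemia pathway were followed across 4 lines of MIA PaCa-2, an established cell line from a human pancreatic carcinoma. The genes were chosen by symbol for their known roles, not by a threshold on measured values, but with earlier results of these data known. All 33 were found among the 63086 genes of the expression table. A normalised count is a gene's read count divided by the size factor of its library, and all 33 had a mean of at least 10 over the libraries and so entered the tests, which ran on 15987 genes. The lines were unmodified cells (WT), a CRISPR Control with wild-type TIMP1 protein and a silent point mutation, and TIMP1 KO 1 and TIMP1 KO 2, both targeted by CRISPR-Cas9 in exon 4 of TIMP1. TIMP1 encodes a secreted inhibitor of matrix metalloproteinases. Bulk RNA-seq was made from 3 libraries of each line, all grown in the same medium. WT and CRISPR Control are called the TIMP1-competent lines here. The knockout lines are clones and the CRISPR Control is 1 line, so a difference between genotypes cannot be told apart from a difference between the lines chosen. The labels call the 3 libraries of a line biological replicates without saying whether they came from separate cultures, and the p-values measure only the spread between these libraries.

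Homologous recombination repairs DNA breaks by copying an intact sister chromatid, and therefore works in S and G2 phase. Nucleases first cut back one strand at the break, BRCA1, PALB2 and BRCA2 then help to build a protein filament on the exposed single strand, further proteins help the strand find and invade the sister, and the BLM helicase with its partners resolves the joined molecules. The Fanconi pathway unhooks crosslinks between DNA strands: a core complex attaches ubiquitin to the FANCD2-FANCI pair, and recombination completes the repair. ATM and ATR are the kinases that signal breaks and stalled replication forks to CHEK2 and CHEK1. Many of these genes are known targets of E2F transcription factors and are transcribed around S phase.

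To describe the promoter sequences of the members, RefSeq windows of 250 bases before to 50 bases after the transcription start (GRCh38.p14) were matched by symbol for 29 of the 33 genes. Of these genes 10 had several windows, 40 in all. NBN, RMI2, RAD54B and FANCI had no window in the table used. An E2F-type octamer (TTTGGCGC, TTTCCCGC, TTTGCCGC or TTTCGCGC, on either strand) occurred in a window of 7 of the 29 genes (24.1%), against 6.55% of the tested genes with a window and 3.99% of all genes in the promoter table. The 7 genes were XRCC2, FANCD2, EXO1, FANCA, TOPBP1, RMI1 and FANCC. The 4 of them with the largest change between knockout and competent lines are shown from 200 bases before the start to the base just before the start or to the end of the octamer, whichever came later, 5′ to 3′ along the gene's own strand, with the octamer in capitals.
XRCC2 (chr7:152676113-152676341, - strand): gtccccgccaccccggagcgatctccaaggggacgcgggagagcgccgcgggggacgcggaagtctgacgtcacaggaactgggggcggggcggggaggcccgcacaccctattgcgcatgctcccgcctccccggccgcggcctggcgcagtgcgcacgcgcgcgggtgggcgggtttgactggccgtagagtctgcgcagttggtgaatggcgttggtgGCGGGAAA
FANCD2 (chr3:10026237-10026442, + strand): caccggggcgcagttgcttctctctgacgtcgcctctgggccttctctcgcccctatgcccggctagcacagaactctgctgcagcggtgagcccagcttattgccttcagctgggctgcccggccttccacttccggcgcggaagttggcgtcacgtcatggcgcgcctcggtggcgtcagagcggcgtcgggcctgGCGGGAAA
EXO1 (chr1:241848004-241848215, + strand): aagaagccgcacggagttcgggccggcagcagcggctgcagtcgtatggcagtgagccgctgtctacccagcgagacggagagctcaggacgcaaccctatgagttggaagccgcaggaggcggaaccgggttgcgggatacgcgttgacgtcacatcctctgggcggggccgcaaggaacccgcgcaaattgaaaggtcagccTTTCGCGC
FANCA (chr16:89816648-89816847, - strand): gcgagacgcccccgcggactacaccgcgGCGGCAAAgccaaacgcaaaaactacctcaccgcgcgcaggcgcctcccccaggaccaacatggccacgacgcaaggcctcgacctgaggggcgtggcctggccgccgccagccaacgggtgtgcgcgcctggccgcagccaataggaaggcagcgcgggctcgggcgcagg
In XRCC2 the octamer read TTTCCCGC on the opposite strand and lay at bases 22 to 29, counting the start as base 1. FANCD2 carried the same octamer on the opposite strand, from 2 bases before the start to base 6. EXO1 held TTTCGCGC at bases 5 to 12, and FANCA held TTTGCCGC on the opposite strand, 172 to 165 bases before the start. CCAAT occurred in windows of 14 of the 29 genes (48.3%, against 42.5% of tested genes), and the cell cycle element TTTGAA or TTCGAA, counted apart from the octamers, in 3 (10.3%, against 15.1%). The median log2 fold change between knockout and competent lines was -0.82 for the 7 genes with an octamer (range -1.19 to -0.36) and -0.42 for the 22 without (range -1.07 to 0.58). Among those without were BLM (-1.07) and BRCA1 (-0.81). These matches are letters in a window and are given as a description with no test.

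Libraries held 26908701 to 36093563 reads in genes. Pearson's r between log2 values of the replicates of a line was 0.990 to 0.993 over the tested genes. TIMP1 RNA averaged 3553 ± 274 normalised counts in WT (SD, n = 3, as for all line means here), 2690 ± 357 in the CRISPR Control, 1600 ± 32.8 in TIMP1 KO 1 and 1161 ± 28.8 in TIMP1 KO 2, and every knockout library lay below every competent one. The epithelial markers KRT8, KRT18, KRT19 and EPCAM and the mesenchymal marker VIM had at least 1199 normalised counts in all libraries. ZEB1 ranged from 809 to 1378 and CDH1 from 68.6 to 1487. The lines differed in several of these markers. KRT19 averaged 15707 in WT, 4583 in the CRISPR Control, 24591 in TIMP1 KO 1 and 52497 in TIMP1 KO 2. In the same order of lines CDH1 averaged 1189, 1424, 128 and 84.9, and CDH2 571, 1110, 93.7 and 384. Markers of leukocytes, endothelium, acinar and beta cells (PTPRC, CD3E, PECAM1, PRSS1, CPA1 and INS) did not exceed 17.2. CRISPR Control replicate 1 stood apart from the other two libraries of its line in several of the 33 genes, and values that rest on it are given with and without it. The members were read 116 to 7498 times per library, far above the floor of 3 reads.

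Of the 33 genes, 29 were lower and 2 were higher in the 6 knockout libraries than in the 6 competent ones at an adjusted p under 0.05 (limma on log2 of the normalised count + 1, Benjamini-Hochberg over 15987 genes). Among all genes tested, 33.03% were lower and 32.87% were higher. The median log2 fold change of the 33 was -0.45, against 0.00 over all genes, and the extremes were XRCC2 at -1.19 and ATM at 0.58. The 2 that were higher were FANCF and ATM, and the 2 that did not pass were RAD50 and ATR. In 17 genes every knockout library lay below every competent library, an arrangement found in 12.4% of all genes. In none of the 33 did every knockout library lie above every competent one, which 12.3% of all genes did. Requiring an absolute log2 fold change of at least 0.5 as well left 16 lower genes and the same count of 2 higher.

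**Figure D1:**
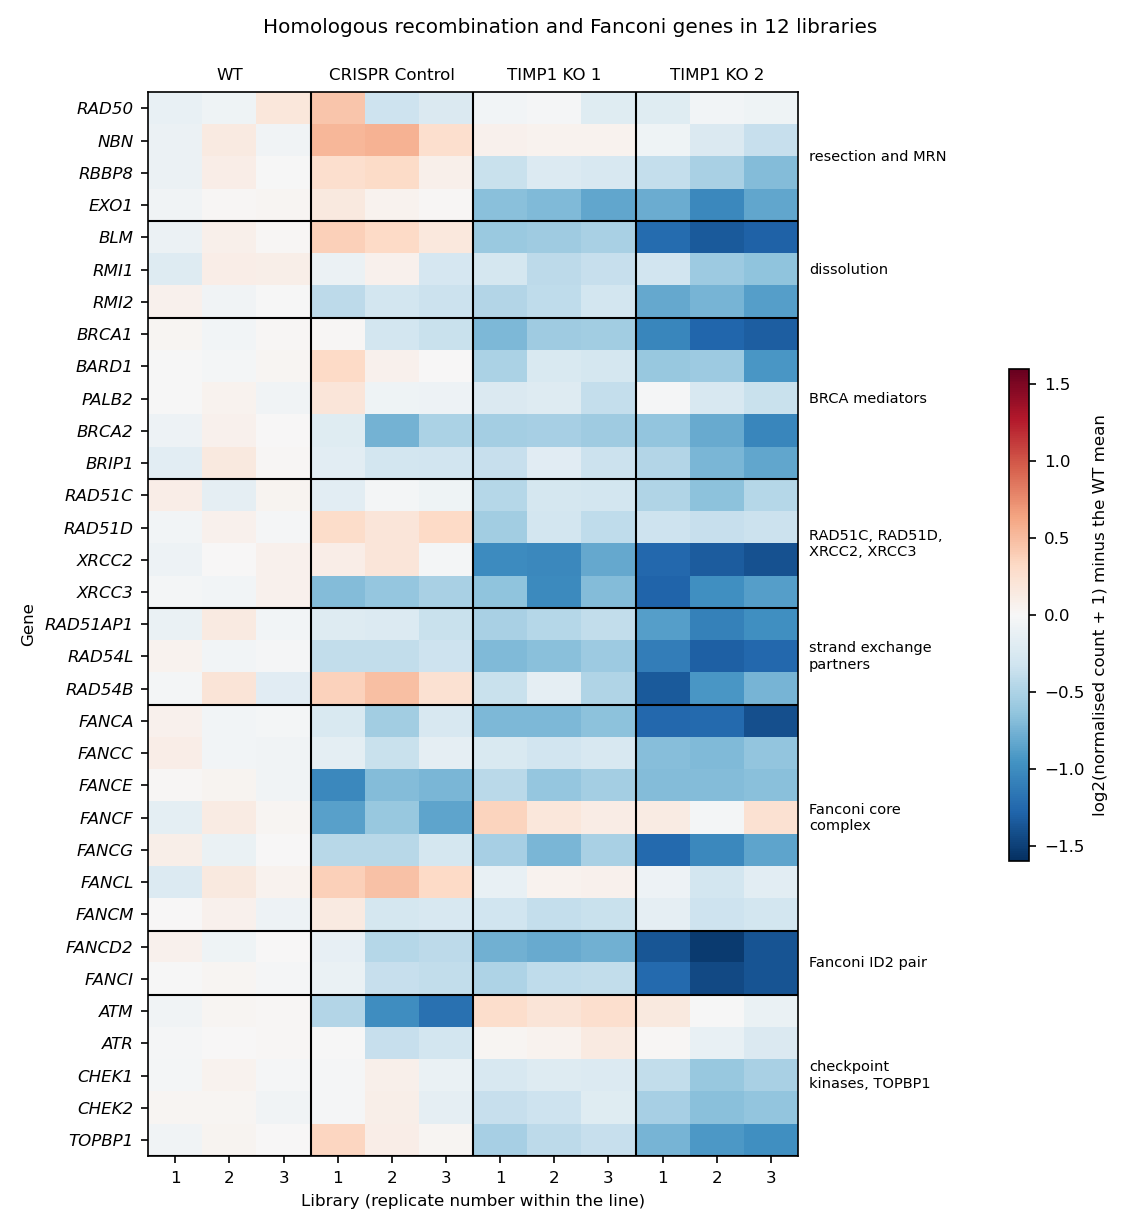
Heat map of the 33 genes (rows, grouped by role) in the 12 libraries (columns), coloured by log2(normalised count + 1) minus the WT mean of the gene. Blue cells, values below WT, fill most of the TIMP1 KO 2 columns and are paler in TIMP1 KO 1, while the CRISPR Control columns hold both colours, including the low values of ATM, FANCE and FANCF.

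Of the genes that begin recombination by resection, EXO1, RBBP8 and NBN were lower in the knockout lines and RAD50 did not pass (log2 fold change -0.07, 95% CI -0.31 to 0.16, adjusted p = 0.580). EXO1 encodes an exonuclease that lengthens the resected strand, and its gene lies at chr1:241847967-241895148 (GRCh38, GENCODE 44). EXO1 read 1213, 1281 and 1294 normalised counts in WT, 1407, 1317 and 1277 in the CRISPR Control, 792, 771 and 709 in TIMP1 KO 1 and 727, 616 and 710 in TIMP1 KO 2. The competent and knockout libraries did not overlap, while the ranges of the knockout lines did. Its log2 fold change was -0.85 ± 0.06 (SE, adjusted p = 3.83e-10), a 1.80-fold lower level. RBBP8, which encodes the resection factor CtIP, averaged 2484 ± 174 in WT, 2896 ± 235 in the CRISPR Control, 2052 ± 98.4 in TIMP1 KO 1 and 1720 ± 191 in TIMP1 KO 2 (log2 fold change -0.51). NBN, the MRN subunit that recruits ATM, was highest in the CRISPR Control (3044 ± 324) and had 2222 ± 199 in WT, 2310 ± 9.83 in TIMP1 KO 1 and 1901 ± 193 in TIMP1 KO 2. NBN thus had a log2 fold change of -0.31 against both competent lines but 0.06 between TIMP1 KO 1 and WT, which did not pass (adjusted p = 0.653). RAD50, the MRN ATPase, read 384 in CRISPR Control replicate 1 and 224 and 240 in replicates 2 and 3, and without replicate 1 its log2 fold change was 0.05.

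BLM, the helicase that dissolves joined recombination intermediates, had the second largest change of the 33 genes. BLM (chr15:90717346-90816166) read 1138, 1286 and 1229 in WT, 1589, 1511 and 1364 in the CRISPR Control, 807, 820 and 851 in TIMP1 KO 1 and 519, 480 and 494 in TIMP1 KO 2. The lines formed 4 separate ranges, with the CRISPR Control above WT and TIMP1 KO 2 below TIMP1 KO 1. The log2 fold change of knockout against competent lines was -1.07 ± 0.06 (adjusted p = 9.31e-12), a 2.09-fold lower level. Its partners RMI1 and RMI2, which bind BLM and topoisomerase IIIα, were lower by smaller amounts, with log2 fold changes of -0.38 and -0.43. RMI2 averaged 828 ± 37.3 in WT, 649 ± 28.5 in the CRISPR Control, 632 ± 39.4 in TIMP1 KO 1 and 470 ± 21.5 in TIMP1 KO 2, so that TIMP1 KO 1 and the CRISPR Control overlapped.

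All 5 genes of the BRCA mediator group were lower in the knockout lines, with a median log2 fold change of -0.45. BRCA1, the ubiquitin ligase and scaffold that promotes resection and recruits PALB2, read 2969, 2828 and 2955 in WT, 2948, 2388 and 2275 in the CRISPR Control, 1772, 1961 and 1988 in TIMP1 KO 1 and 1413, 1215 and 1165 in TIMP1 KO 2. Each knockout library lay below each competent one, and the TIMP1 KO 2 libraries lay below those of TIMP1 KO 1. The BRCA1 log2 fold change was -0.81 ± 0.07 (adjusted p = 4.12e-09). BRCA1 lies at chr17:43044295-43170245 and overlaps NBR2 on the opposite strand and BRCA1P1, a partial copy of itself, on its own strand, and how reads were divided among them is not given in the sources used here. BARD1, the obligate partner of BRCA1, changed by -0.59 and likewise had no overlap between groups. BRCA2, which acts after resection, averaged 680 ± 36.8 in WT, 492 ± 96.6 in the CRISPR Control, 463 ± 5.82 in TIMP1 KO 1 and 384 ± 54.4 in TIMP1 KO 2. CRISPR Control and knockout libraries overlapped in BRCA2, and its change of -0.45 was -0.38 without CRISPR Control replicate 1. PALB2, the bridge between BRCA1 and BRCA2, and BRIP1, a helicase that binds BRCA1, had log2 fold changes of -0.25 and -0.36.

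**Figure D2:**
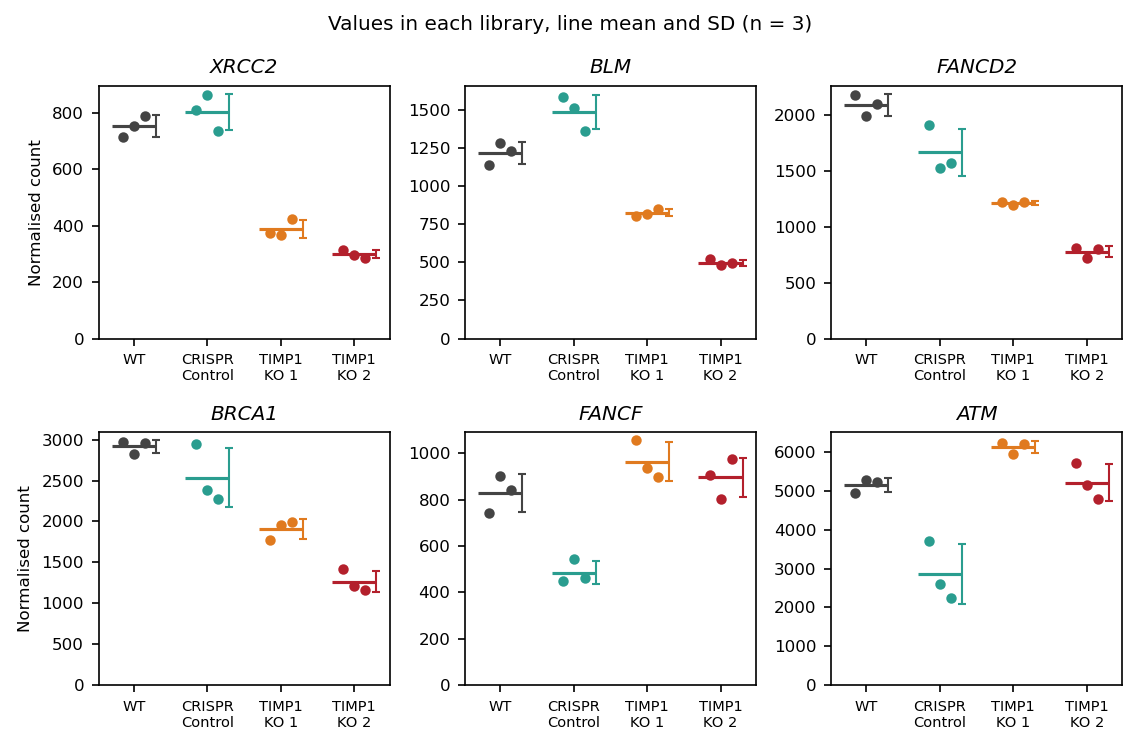
Normalised counts of 6 of the genes in each library (points), with the line mean (horizontal bar) and SD (vertical bar, n = 3), on axes that start at 0. XRCC2, BLM, FANCD2 and BRCA1 are lower in all 6 knockout libraries, while FANCF and ATM are lowest in the CRISPR Control and overlap between WT and TIMP1 KO 2.

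RAD51C, RAD51D, XRCC2 and XRCC3 were each lower in the knockout lines. Their proteins form small complexes that act on single-stranded DNA during strand exchange. XRCC2 (chr7:152644776-152676193), which had the largest change of the 33 genes, read 713, 754 and 789 in WT, 808, 861 and 734 in the CRISPR Control, 372, 366 and 424 in TIMP1 KO 1 and 314, 297 and 285 in TIMP1 KO 2. The lowest competent library held 713 and the highest knockout library 424. The log2 fold change was -1.19 ± 0.07 (adjusted p = 1.87e-11), which is a 2.28-fold lower level. XRCC3 averaged 1335 ± 59.0 in WT but 874 ± 55.2 in the CRISPR Control, near the 777 ± 104 of TIMP1 KO 1 and above the 648 ± 90.2 of TIMP1 KO 2. RAD51D, by contrast, was highest in the CRISPR Control (1404 ± 64.8, against 1167 ± 47.9 in WT) and nearly equal in the knockout lines, at 874 ± 76.8 and 914 ± 13.3. RAD51C, shared by the complexes, had a log2 fold change of -0.40, with 439 ± 28.5 in TIMP1 KO 1 and 386 ± 29.0 in TIMP1 KO 2 against 559 ± 48.4 in WT.

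The partners of strand exchange were lower together, with log2 fold changes of -0.85 for RAD54B, -0.75 for RAD54L and -0.59 for RAD51AP1. RAD54L and RAD54B encode motor proteins that remodel DNA during strand exchange, and RAD51AP1 helps to capture the sister duplex. RAD54B (chr8:94371960-94475115) read 241, 284 and 216 in WT, 318, 344 and 292 in the CRISPR Control, 191, 223 and 176 in TIMP1 KO 1 and 96.1, 128 and 146 in TIMP1 KO 2. WT and TIMP1 KO 1 overlapped and TIMP1 KO 2 lay below all other lines. The change of RAD54B was -0.85 ± 0.11 (adjusted p = 1.56e-06), and part of its annotation is shared with FSBP on the same strand. RAD54L averaged 1347 ± 51.2 in WT, 1041 ± 25.7 in the CRISPR Control, 858 ± 40.5 in TIMP1 KO 1 and 578 ± 41.6 in TIMP1 KO 2, with no overlap among the lines.

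In the Fanconi core complex 6 of 7 genes were lower in the knockout lines and FANCF was higher. FANCA (chr16:89726683-89816977), a subunit of the core complex, read 1791, 1665 and 1680 in WT, 1444, 1166 and 1434 in the CRISPR Control, 1037, 1040 and 1087 in TIMP1 KO 1 and 717, 724 and 644 in TIMP1 KO 2. The 4 lines formed separate ranges in the order WT, CRISPR Control, TIMP1 KO 1 and TIMP1 KO 2, and the FANCA change was -0.82 ± 0.06 (adjusted p = 1.14e-09). FANCG, which binds FANCA, followed the same order of means and changed by -0.63, FANCC by -0.36, and FANCL, the ubiquitin ligase of the complex, by -0.28. FANCL was highest in the CRISPR Control (1135), with 872 in WT, 870 in TIMP1 KO 1 and 764 in TIMP1 KO 2. Against WT alone its changes of 0.00 in TIMP1 KO 1 and -0.18 in TIMP1 KO 2 did not pass (adjusted p = 0.986 and 0.126). FANCE and FANCM, an adaptor for FANCD2 and the translocase that anchors the complex to DNA, had the smallest changes that passed, -0.20 (adjusted p = 0.0157) and -0.24 (adjusted p = 0.0122), and neither passed when libraries were scaled to equal totals (adjusted p = 0.0616 and 0.0582). FANCE was lowest in the CRISPR Control (523 ± 65.1), with 919 ± 34.2 in WT, 637 ± 43.3 in TIMP1 KO 1 and 570 ± 5.91 in TIMP1 KO 2.

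FANCF (chr11:22622533-22625823), an adaptor of the core complex encoded by a gene without introns, read 741, 901 and 843 in WT, 451, 542 and 460 in the CRISPR Control, 1059, 938 and 898 in TIMP1 KO 1 and 907, 805 and 976 in TIMP1 KO 2. WT and TIMP1 KO 2 overlapped, and only the CRISPR Control stood apart, below all the other lines. The FANCF change between knockout and competent lines was 0.55 ± 0.07 (adjusted p = 2.52e-06), but against WT alone it was 0.22 for TIMP1 KO 1 and 0.11 for TIMP1 KO 2, neither of which passed (adjusted p = 0.111 and 0.377). FANCF overlaps GAS2 on the opposite strand, and whether the counting used strand is not given in the sources used here.

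FANCD2 and FANCI, the clamp that receives ubiquitin at a crosslink, were lower than WT in both knockout lines. They were also lower, by less, in the CRISPR Control (log2 fold changes of -0.33 and -0.29). FANCD2 (chr3:10026370-10101932) read 2178, 1985 and 2095 in WT, 1904, 1524 and 1565 in the CRISPR Control, 1224, 1190 and 1224 in TIMP1 KO 1 and 808, 721 and 799 in TIMP1 KO 2. All 4 lines were separate, and the change was -0.94 ± 0.06 (adjusted p = 1.38e-10). FANCI (chr15:89243945-89317261) read 6062, 6213 and 6008 in WT, 5679, 4715 and 4633 in the CRISPR Control, 4326, 4581 and 4657 in TIMP1 KO 1 and 2562, 2232 and 2333 in TIMP1 KO 2. TIMP1 KO 1 and the CRISPR Control overlapped, and TIMP1 KO 2 lay far below both. The FANCI change over both knockout lines was -0.75 ± 0.06 (adjusted p = 9.50e-10), made up of -0.43 in TIMP1 KO 1 and -1.36 in TIMP1 KO 2 against WT.

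**Figure D3:**
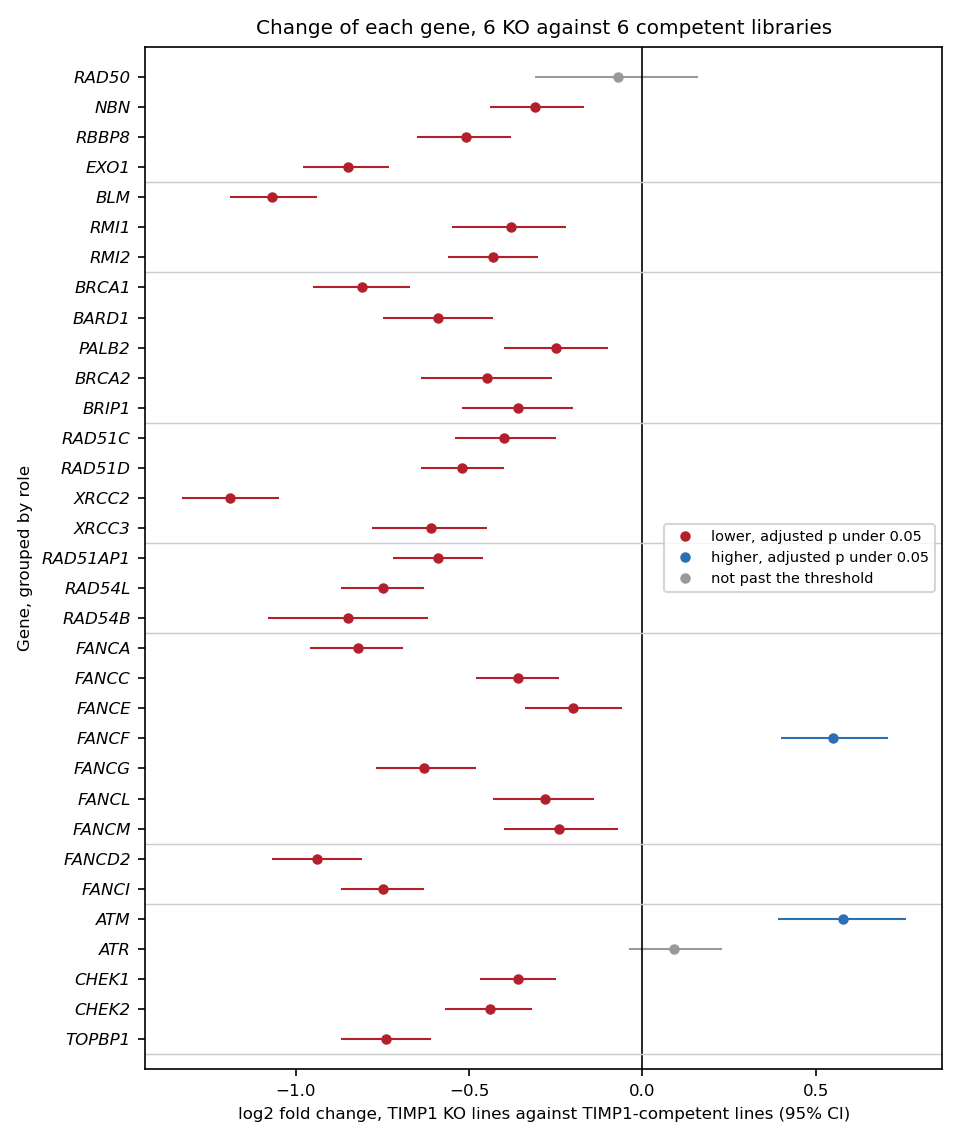
Log2 fold change of each of the 33 genes in the 6 knockout against the 6 competent libraries (points) with its 95% confidence interval (bars), grouped by role and coloured by the call. Red points, lower in the knockout lines, number 29, FANCF and ATM are the 2 blue points to the right of 0, and the intervals of RAD50 and ATR cross 0.

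The checkpoint genes divided. CHEK1 and CHEK2, the kinases activated by ATR and ATM, were lower in the knockout lines with log2 fold changes of -0.36 and -0.44, and TOPBP1, the activator of ATR, had a change of -0.74. TOPBP1 averaged 5091 ± 169 in WT, 5710 ± 679 in the CRISPR Control, 3753 ± 223 in TIMP1 KO 1 and 2769 ± 237 in TIMP1 KO 2. Neither of the upstream kinases was called lower. ATM (chr11:108223044-108369102) read 4934, 5279 and 5235 in WT, 3721, 2593 and 2251 in the CRISPR Control, 6236, 5951 and 6213 in TIMP1 KO 1 and 5722, 5142 and 4777 in TIMP1 KO 2. The CRISPR Control lay below all other lines, its replicate 1 above its other libraries, and WT and TIMP1 KO 2 overlapped. The ATM change was 0.58 ± 0.09 (adjusted p = 1.10e-05) and 0.68 without CRISPR Control replicate 1, while against WT it was 0.25 in TIMP1 KO 1 and 0.01 in TIMP1 KO 2, and neither passed with all libraries (adjusted p = 0.120 and 0.928). The change in TIMP1 KO 1 did pass without CRISPR Control replicate 1 (0.25, adjusted p = 0.0101). ATR had a log2 fold change of 0.09 (95% CI -0.04 to 0.23, adjusted p = 0.201), which passed only without CRISPR Control replicate 1 (0.15, adjusted p = 0.0214).

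Against WT alone, TIMP1 KO 1 had 26 of the 33 genes lower, 0 higher and 7 that did not pass, with a median log2 fold change of -0.36. Of all genes, 17.5% were lower and 18.0% higher in that comparison. No member was higher in TIMP1 KO 1 by edgeR or DESeq2 on the recovered reads either, while FANCF and ATM reached the threshold when only the libraries of these 2 lines were fitted. The 26 lower calls fell to 19 without TIMP1 KO 1 replicate 1, and 16 of them held under every alternative other than a required minimum change of 0.5, which left 11. The 10 that did not were PALB2, BARD1, RAD51C, RMI1, RBBP8, FANCC, FANCM, BRIP1, CHEK1 and CHEK2, all with changes between -0.36 and -0.23. XRCC2 (-0.96), XRCC3 (-0.79), FANCD2 (-0.78), EXO1 (-0.74) and FANCA (-0.70) led the calls that held.

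TIMP1 KO 2 also had 26 genes lower and 0 higher than WT, with a median of -0.69, and the share of all genes was 27.9% lower and 27.1% higher. There 25 of the 26 calls held under every alternative other than the minimum change, the exception being NBN (-0.23, adjusted p = 0.0430), and the minimum change left 24. The largest changes were those of FANCD2 (-1.43), FANCI (-1.36), XRCC2 (-1.33), FANCA (-1.30), BLM (-1.29), RAD54L (-1.22) and BRCA1 (-1.21). The genes that did not pass in TIMP1 KO 2 were RAD50, PALB2, FANCF, FANCL, FANCM, ATM and ATR. PALB2 (-0.21) and FANCM (-0.26) did pass without CRISPR Control replicate 1 (adjusted p = 0.0479 and 0.0217) and with the replicate number as a block, so that 28 were lower in each case, and FANCL passed without WT replicate 1 (-0.30, adjusted p = 0.0181). No member was higher in it by edgeR or DESeq2.

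In all, 24 genes were lower than WT in both knockout lines, as were 12.9% of all genes tested. No member passed in opposite directions in the 2 lines, as did 1.69% of all genes. Both comparisons share the WT libraries, so the values are side by side and their overlap is not independent.

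**Figure D4:**
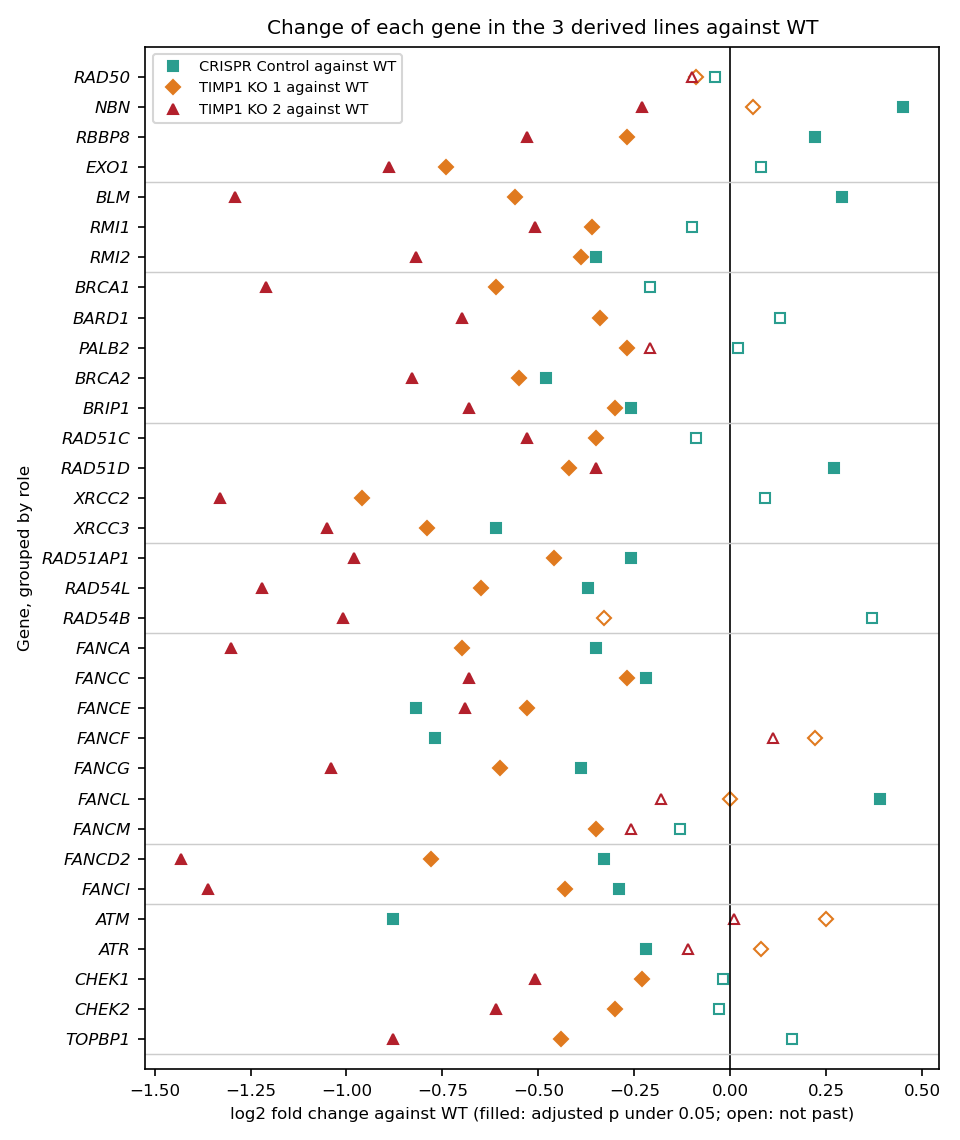
Log2 fold change of each gene against WT in the CRISPR Control (squares), TIMP1 KO 1 (diamonds) and TIMP1 KO 2 (triangles), filled where the adjusted p was under 0.05 and open where it was not. TIMP1 KO 2 lies furthest left for 26 of the genes, and the squares of ATM, ATR, FANCE and FANCF lie left of both knockout lines.

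The CRISPR Control, which expresses TIMP1, also differed from WT in these genes. It had 15 members lower, 5 higher and 13 that did not pass, with a median of -0.13, against 26.3% lower and 27.2% higher among all genes. The lower members included all those of the FANCD2-FANCI pair (-0.33 and -0.29) and 5 of the 7 core complex genes, and the largest changes were ATM (-0.88), FANCE (-0.82), FANCF (-0.77) and XRCC3 (-0.61). NBN (0.45), FANCL (0.39), BLM (0.29), RAD51D (0.27) and RBBP8 (0.22) were the 5 higher members. The calls of RAD51AP1, RBBP8, FANCC, BRIP1 and ATR did not hold under every alternative other than the minimum change, which left 4 lower and 0 higher. Without CRISPR Control replicate 1 RBBP8 had 0.19 (adjusted p = 0.0986) while BRCA1 (-0.32, adjusted p = 0.00404) and FANCM (-0.27, adjusted p = 0.0344) passed.

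Of the 24 genes lower than WT in both knockout lines, the CRISPR Control was lower as well in 12, among them BRCA2, RAD54L, XRCC3, FANCA, FANCD2 and FANCI, higher in 3 (BLM, RAD51D and RBBP8), and not past the threshold in 9. Of all genes, 2055 were lower than WT in both knockout lines. The control was lower as well in 447 of them (2.80% of all genes), higher in 780 (4.88%) and not past the threshold in 828. The 9 members lower in both knockout lines and not called in the control were BRCA1, BARD1, RAD51C, XRCC2, RMI1, EXO1, CHEK1, CHEK2 and TOPBP1. The same rule took 5.18% of all genes in the lower direction, and 5.00% of all genes but 0 members in the higher direction. The 9 became 5 without TIMP1 KO 1 replicate 1 and ranged up to 13 under other settings, among them 10 by edgeR and 9 by DESeq2. Without CRISPR Control replicate 1 they were 10. BRCA1 left the set, being lower in the control (-0.32, adjusted p = 0.00404). RBBP8, no longer called in the control (0.19, adjusted p = 0.0986), and PALB2, then lower in TIMP1 KO 2 (-0.21, adjusted p = 0.0479), joined it. Tested directly against the CRISPR Control, each of the 9 was lower in both knockout lines except RMI1, which did not pass in TIMP1 KO 1 (-0.26, 95% CI -0.49 to -0.03 before adjustment).

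Measured against the CRISPR Control, TIMP1 KO 1 had 18 genes lower and 4 higher (FANCE, FANCF, ATM and ATR), with a median of -0.26, where 31.3% of all genes were lower and 31.7% higher. There 11 did not pass. Among them FANCI, FANCC, BRCA2, BRIP1 and RMI2 had log2 fold changes of -0.14 to -0.04. The rest were RAD50 (-0.05), XRCC3 (-0.18), RAD51AP1 (-0.20), FANCG (-0.21), FANCM (-0.22) and RMI1 (-0.26). FANCE passed at 0.29 (adjusted p = 0.0139) but not without CRISPR Control replicate 1 (0.18, adjusted p = 0.0858). PALB2 likewise passed at -0.29 (adjusted p = 0.0174) but not without that library (-0.20, adjusted p = 0.0914). TIMP1 KO 2 had 27 genes lower and 2 higher (FANCF and ATM) than the CRISPR Control, with a median of -0.59, where 34.4% of all genes were lower and 33.3% higher. Of these, BRCA2 (-0.35) and PALB2 (-0.23) did not pass without CRISPR Control replicate 1 (adjusted p = 0.140 and 0.215), while ATR passed as higher without it (0.22, adjusted p = 0.0223) but not with it (0.11, adjusted p = 0.282).

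Lower in both knockout lines against each of the 2 competent lines were 14 members, which is true of 9.50% of all genes. They were BRCA1, BARD1, RAD51C, RAD51D, RAD54L, XRCC2, BLM, EXO1, RBBP8, FANCA, FANCD2, CHEK1, CHEK2 and TOPBP1. The line means ran in the order WT, CRISPR Control, TIMP1 KO 1, TIMP1 KO 2 in 17 genes and with the first pair exchanged in 8. TIMP1 KO 2 had the lowest mean in 26 genes, the CRISPR Control in 4 (FANCE, FANCF, ATM and ATR) and TIMP1 KO 1 in 3 (PALB2, RAD51D and FANCM). The share of all genes with each of these orders was not computed.

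The knockout lines differed from each other in size. TIMP1 KO 2 was lower than TIMP1 KO 1 in 19 of the 33 genes and higher in 0, with a median of -0.29, while 20.1% of all genes were lower and 18.1% higher. Neither edgeR nor DESeq2 called a member higher. FANCI had the largest difference (-0.93 ± 0.08, adjusted p = 3.35e-08), followed by BLM (-0.73 ± 0.08, adjusted p = 1.21e-06), RAD54B (-0.68 ± 0.16, adjusted p = 0.00181) and FANCD2 (-0.65 ± 0.09, adjusted p = 1.00e-05). Of RAD51C, RAD51D, XRCC2 and XRCC3, XRCC2 alone was called (-0.37). EXO1, among the largest changes of the knockout lines, differed between them by -0.15 ± 0.08, which did not pass (adjusted p = 0.183). Without CRISPR Control replicate 1 the 19 became 22, with BRCA2 (-0.28, adjusted p = 0.0441), ATM (-0.24, adjusted p = 0.0136) and ATR (-0.19, adjusted p = 0.0454) added. When libraries were scaled to equal totals, the 19 became 13, and that scaling moved the median of all genes from -0.01 to 0.09 in this comparison and the share of calls that were higher from 47.4% to 65.5%. Relative to the median of all genes, the members' median was -0.27 under both scalings.

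Other genes of the same and neighbouring pathways gave the background to these changes. Between knockout and competent lines, 33.03% of all genes tested were lower and 32.87% were higher. Of 51 tested further genes of homologous recombination and the Fanconi pathway, 31 were lower and 10 higher in the knockout than the competent lines, with a median of -0.28. FAAP24, which targets the Fanconi core complex to DNA, changed by -1.07. Of 20 checkpoint partners of ATR and ATM, 17 were lower and 1 was higher (median -0.44), led by the phosphatase CDC25A (-1.46) and the ATR mediator CLSPN (-0.93). Mismatch repair had 7 of 8 lower and 1 higher (median -0.35). Base excision repair had 13 of 20 lower and 3 higher (median -0.21), and the glycosylases OGG1 and NEIL1 went in opposite directions, at -0.99 and 0.98. NEIL1 averaged 111 in WT, 30.8 in the CRISPR Control, 112 in TIMP1 KO 1 and 122 in TIMP1 KO 2. Its value of 0.98 thus rests on the low control. Non-homologous end joining, the competing route of break repair, had 8 of 13 lower and 4 higher (median -0.20), with NHEJ1 at -0.51 and APLF at 0.52. Nucleotide excision repair stood nearest to the median of all genes, with 10 of 22 lower and 4 higher (median -0.06). GTF2H2 had -0.50 and DDB2 0.70. DDB2 too was low only in the CRISPR Control (976), against 2509 in WT, 2707 in TIMP1 KO 1 and 2373 in TIMP1 KO 2.

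**Figure D5:**
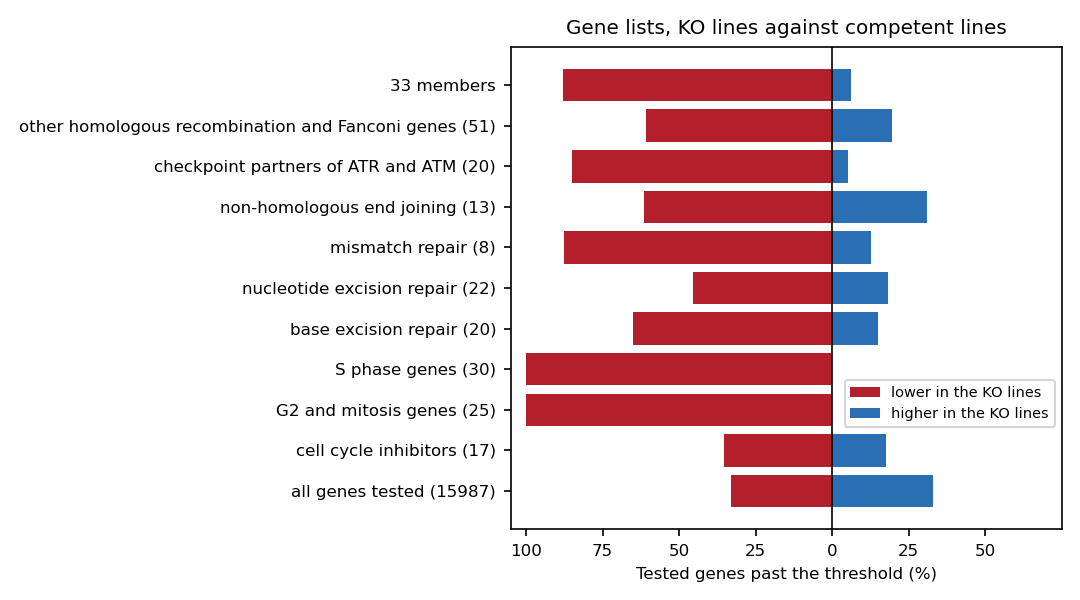
Share of the tested genes of each list (number tested in parentheses) that were lower (red, left) or higher (blue, right) in the knockout than the competent lines at an adjusted p under 0.05. Every gene of the S phase and the G2 and mitosis lists is lower, 87.9% of the 33 members are, and all genes tested divide into 33.03% lower and 32.87% higher.

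Genes of DNA replication and cell division were also lower in the knockout than the competent lines. All 30 S phase genes were lower (median -0.79), led by the replisome subunits GINS2 (-1.43) and MCM5 (-1.08). So were all 25 genes of G2 and mitosis (median -0.66), led by the mitotic kinases PLK1 (-1.08) and AURKB (-0.98). Against WT, TIMP1 KO 2 had all 25 G2 and mitosis genes lower (median -1.06). TIMP1 KO 1 had 13 lower (median -0.21) and 12 that did not pass. Against the CRISPR Control, TIMP1 KO 1 had 13 of them lower and 2 higher (median -0.25). TIMP1 KO 2 had 25 lower (median -1.01). Of the 30 S phase genes, TIMP1 KO 1 had 29 lower than WT and 21 lower than the CRISPR Control. TIMP1 KO 2 had 30 lower in both comparisons. The summed normalised counts of the S phase list were 159710 to 170010 in WT, 144443 to 155781 in the CRISPR Control, 106087 to 110144 in TIMP1 KO 1 and 71760 to 74928 in TIMP1 KO 2. The G2 and mitosis list summed to 200002 to 202435, 191462 to 197763, 167094 to 169524 and 94362 to 98386 in the same lines. The 33 members together held 56374 to 58479, 48837 to 56218, 45307 to 46969 and 34571 to 38194, in the same order of lines. In bulk RNA, fewer cells in S and G2 phase and less of these transcripts per cell cannot be told apart, and the part of cell cycle composition in the members' values was not tested. Of 17 cell cycle inhibitors 6 were lower (35.3%, against 33.03% of all genes) and 3 higher (17.6%, against 32.87%), with a median of -0.12. Of these CDKN1A, which encodes p21, averaged 1140 ± 55.0 in WT, 1494 ± 133 in the CRISPR Control, 3420 ± 15.9 in TIMP1 KO 1 and 3283 ± 172 in TIMP1 KO 2 (1.36 ± 0.05, adjusted p = 7.73e-14), while the repressor E2F8 was lower (-0.88).

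The members are spread over 17 chromosomes. The median log2 fold change of up to 20 tested neighbours, 10 on each side, was -0.38 to 0.42 for the 33 genes, with a median of -0.04. Below the median of their neighbours lay 31 members, where 30 of the 33 had a change below 0 themselves. How many of all genes lie below theirs was not computed. The neighbours of BRCA1 had a median of 0.42 and those of XRCC2, BLM and FANCA 0.06, 0.07 and 0.06. The lowest medians were those around FANCI (-0.38), BARD1 (-0.37), RAD51D (-0.32) and FANCD2 (-0.29), where 10 neighbours of FANCD2 were called lower and 8 higher, and the median around FANCF was 0.33. Of the 33 genes 26 overlap another annotated gene, 23 of them one on the opposite strand.

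Per kilobase of annotated exon, CHEK1 (770 normalised counts per kb), TOPBP1 (694) and FANCG (555) were the most abundant members in WT, and RAD50 (26.8) and FANCL (23.0) were the least. The order rests on the length used: per kilobase of the canonical transcript, FANCI (1288), FANCG (1205) and CHEK1 (1045) came first, FANCL had 526 and RAD50 was last at 34.2.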

How the data were processed

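RNA-seq was made from 12 libraries, 3 for each of 4 MIA PaCa-2 lines, and samples were grouped by their labelled line. As described for the study, the authors checked reads with FastQC, trimmed them with Cutadapt, aligned them to GRCh38 with STAR, assigned them to genes with featureCounts and scaled each library by its DESeq2 size factor. The deposited signal is therefore a normalised count per gene and library. Strand setting and annotation release are not given in the sources used here. In all 12 libraries each value divided by that of 1 read gave whole reads (100% within 0.01 of a whole number), and these recovered reads, 26908701 to 36093563 per library, were used only in alternatives. The floor of 3 reads covers counting error only. The table's 4 columns of line means and 1 blank line were not used.

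Genes with a mean of at least 10 normalised counts (15987) were fitted with limma 3.58.1 (R 4.3.3) on log2(normalised count + 1) over all 12 libraries, with 4 line means, a mean-variance trend, 7 contrasts and Benjamini-Hochberg adjustment at 0.05, two-sided. A fold change on this scale understates the change of low genes. Knockout against competent lines compares the means of the 2 line means. Alternatives changed the pseudocount (0.5 or 10), the filter (mean of 50 or none), the scaling (equal totals or quantile), the test (edgeR 4.0.16, DESeq2 1.42.0, no trend, a minimum change of 0.5), the libraries fitted, and the replicate block. The code was tested on simulated data with known changes. Promoters came from RefSeq (GRCh38.p14), and gene positions and lengths from GENCODE 44. Every member was named, with the value in each library for the 8 largest changes of knockout against competent lines and for members that passed in the opposite direction; up to 2 genes were named per further list, by size of change. Some genes that this rule named are not reported here. The members and lists were chosen with earlier results of these data known. Confidence intervals (CI) of single log2 fold changes used limma's moderated standard error and degrees of freedom.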

Additional observations from a re-analysis of the deposited data

Results flagged for a closer look

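In 19 of the 33 genes the change against WT differed between the 2 knockout lines, by limma's test of TIMP1 KO 2 against TIMP1 KO 1 itself, and in all 19 TIMP1 KO 2 was the lower line. The log2 differences were -0.26 for RBBP8 and -0.29 for NBN in resection, -0.73 for BLM and -0.43 for RMI2 in dissolution, and -0.60 for BRCA1, -0.36 for BARD1 and -0.38 for BRIP1 among the BRCA mediators. In strand exchange they were -0.37 for XRCC2, -0.53 for RAD51AP1, -0.57 for RAD54L and -0.68 for RAD54B. In the Fanconi pathway they were -0.60 for FANCA, -0.41 for FANCC, -0.45 for FANCG, -0.65 for FANCD2 and -0.93 for FANCI. The checkpoint genes CHEK1, CHEK2 and TOPBP1 had -0.28, -0.32 and -0.44. The differences of BARD1, RBBP8, NBN, BRIP1, CHEK1 and CHEK2 did not pass under some of the alternatives other than a required minimum change, which left 8 of the 19, equal library totals among them for each of the 6. The G2 and mitosis genes also differed between the knockout lines, 25 of 25 being lower in TIMP1 KO 2 with a median of -0.81, as were 27 of 30 S phase genes (median -0.53), and their part in the members' differences was not tested.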

How the results depend on the processing

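Of 5313 values of single members under the alternatives other than the minimum change, 5073 kept their direction and side of the threshold, 147 lost and 58 gained a call, and 35 changed sign, none of them called with all libraries and the settings reported. The count of 29 genes lower in the knockout lines was 29 without any 1 library, 27 with equal totals and 29 by edgeR and DESeq2. Requiring a minimum change left 16 there, 11 (TIMP1 KO 1 against WT), 6 lower and 2 higher (TIMP1 KO 1 against CRISPR Control), 8 (TIMP1 KO 2 against TIMP1 KO 1), and 4 lower and 0 higher (CRISPR Control against WT). TIMP1 KO 1 against WT gained 2 higher genes when only its lines were fitted and ranged from 0 to 1 when 1 library was left out, the 1 being ATM without CRISPR Control replicate 1. TIMP1 KO 2 against CRISPR Control had 4 higher genes with equal totals, a scaling that moved the median of all genes in that comparison from -0.01 to 0.11 and the higher share of calls from 49.2% to 57.8% (49.3% to 59.9% against WT). The 9 genes lower in both knockout lines and not called in the CRISPR Control ranged from 5 (without TIMP1 KO 1 replicate 1) to 13 when 1 library was left out. The causes were not tested.

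Same-numbered libraries of different lines deviated from their line means with r of -0.129 to 0.160 (18 pairs, 2 over 0.1, median -0.010). For the 36 pairs with different numbers the median was 0.011, and 6 of 12 libraries correlated best with their own number. The 2 pairs over 0.1 were replicates 1 (0.160) and 3 (0.145) of the CRISPR Control and TIMP1 KO 2, whose replicates 2 had -0.062. Deviations within a line of 3 libraries are not independent, so these values cannot decide whether some libraries shared a batch. With the replicate number as a block, 29 members were lower in the knockout lines and the 9 genes were 12.

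Sign changes were all in small values. With 1 library left out, the log2 fold change ranged from -0.14 to 0.00 for RAD50, -0.11 to 0.08 for FANCL (TIMP1 KO 1 against WT), -0.05 to 0.08 for ATM (TIMP1 KO 2 against WT), and, for the CRISPR Control against WT, from -0.07 to 0.06 for PALB2, -0.28 to 0.11 for RAD50, -0.06 to 0.03 for CHEK1 and -0.09 to 0.04 for CHEK2. Against the CRISPR Control it ranged in TIMP1 KO 1 from -0.21 to 0.08 for BRCA2, -0.19 to 0.19 for RAD50, -0.09 to 0.00 for RMI2 and -0.10 to 0.00 for BRIP1, and in TIMP1 KO 2 from -0.21 to 0.18 for RAD50 and -0.20 to 0.01 for FANCM. Between knockout lines it was -0.04 to 0.13 for PALB2 and -0.07 to 0.03 for RAD50, and between knockout and competent lines -0.15 to 0.05 for RAD50. FANCL in TIMP1 KO 1 against WT was 0.00 with equal totals, -0.03 with quantile scaling and -0.01 by edgeR and by DESeq2. Equal totals gave 0.00 for PALB2 in the CRISPR Control against WT, 0.05 for RAD50 in TIMP1 KO 2 against the CRISPR Control and 0.09 between the knockout lines, where edgeR gave 0.00, and DESeq2 gave 0.01 for RAD50 in the CRISPR Control against WT.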
